A study of Mus musculus with 6 samples.

Results

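Neutrophil marker genes were followed across the colorectal tumors of mice with and without epithelial p53. The 10 genes were Ngp, Camp, Ltf, S100a8, S100a9, Mpo, Elane, Retnlg, Cxcr2 and Csf3r, which is 10 of the 54167 genes in the deposited table, and each symbol matched 1 row. The list was chosen by name, but with the measured genotype difference of Ngp, S100a8 and S100a9 already known. Their values are therefore given as a description, with no p printed for any of the 10. Counts of those past a p threshold are given only beside the share of all genes, and they support nothing.

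RNA-seq was made from 6 tumors of C57BL/6J mice, 3 labelled Trp53fl/fl and 3 labelled VP. Both groups carry Trp53 alleles flanked by loxP sites. VP mice also carry Cre under the villin promoter, which deletes Trp53 in intestinal epithelial cells, so neutrophils and the other non-epithelial cells of a VP tumor keep the gene. The carcinogen azoxymethane (AOM) was given to both groups at 8 weeks of age, at 10 mg/kg. Cycles of DSS, dextran sulfate sodium, followed at 2.5% for 7 days per cycle to injure the colon, and day 98 was the day of tumor collection. The tumors were homogenized whole, so a transcript level mixes all cell types, and more cells of a type cannot be told apart from more RNA per cell. The labels do not say whether the 3 tumors of a group came from separate mice, and p-values then measure only the spread between these tumors.

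Neutrophils are short-lived white cells made in the bone marrow that enter inflamed tissue in large numbers. Their granules are filled in a fixed order while the cell matures. Azurophil granule proteins such as myeloperoxidase and elastase are made first, in promyelocytes, and specific granule proteins such as lactoferrin and cathelicidin later, in myelocytes and metamyelocytes, so a circulating neutrophil carries the proteins but little of the mRNA for the earliest ones. Mature cells instead express the chemokine receptor CXCR2, the receptor for granulocyte colony-stimulating factor (CSF3R) and very large amounts of the calcium-binding proteins S100A8 and S100A9.

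Values are TPM, a transcript abundance corrected for length and brought to the same total in every tumor. The columns sum to between 999964.35 and 1000067, and between 14857 and 15234 genes reached 1 TPM in a tumor. TPM keep no read number, so depth is unknown. Differences are VP minus Trp53fl/fl on the log2(TPM + 1) scale, which understates the change of low genes. The 15117 genes that reached 1 TPM in 3 or more tumors were tested with limma, a linear model that shares its estimate of spread across genes, with Benjamini-Hochberg adjustment. Of all 15117 tested genes, 1892 had an unadjusted p under 0.05, in either direction. At adjusted p under 0.05, 25 genes were called (0.165%), 12 higher and 13 lower in VP. That count was 8, 17 and 10 without Trp53fl/fl replicates 1, 2 and 3 and 9, 6 and 28 without VP replicates 1, 2 and 3. Rescaling by the median of ratios gave 12 higher and 8 lower, and centring on 12 epithelial genes gave 13 higher and 29 lower. The median difference of all tested genes was -0.07, and it was -0.23 with epithelial centring. Trp53 itself was at 124.94, 99.30 and 147.45 TPM in Trp53fl/fl replicates 1, 2 and 3 and at 38.45, 32.79 and 27.83 TPM in VP replicates 1, 2 and 3, a limma log2 difference of -1.87 (SE 0.18, adjusted p = 0.0207). Leaving out Trp53fl/fl replicate 1 or 3 or VP replicate 1 or 2 gave an adjusted p for Trp53 between 0.0553 and 0.0986.

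In every VP tumor, 7 of the 10 neutrophil genes (Ngp, Camp, Ltf, S100a8, S100a9, Retnlg and Cxcr2) lay above every Trp53fl/fl tumor, and 0 lay below. Over all tested genes, 6.03% lay wholly above in this way and 13.3% wholly below. For Mpo, Elane and Csf3r the groups overlapped. The median log2 difference of all 10 genes was 1.85, and it ranged from 1.51 to 2.10 when 1 tumor was left out. Limma called 1 of the 10 higher (Ngp) and 0 lower, against 0.0794% of all tested genes called higher. An unadjusted p under 0.05 was reached by 7 of them, and by 1892 of all 15117 tested genes. The number called was 0 without Trp53fl/fl replicate 3 and 2 without Trp53fl/fl replicate 2. Of the 10, 8 passed the expression filter, and Ngp and Camp passed it only through the VP tumors, so these had to differ. As the list was chosen on this contrast, nothing is read from these counts.

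**Figure D1:**
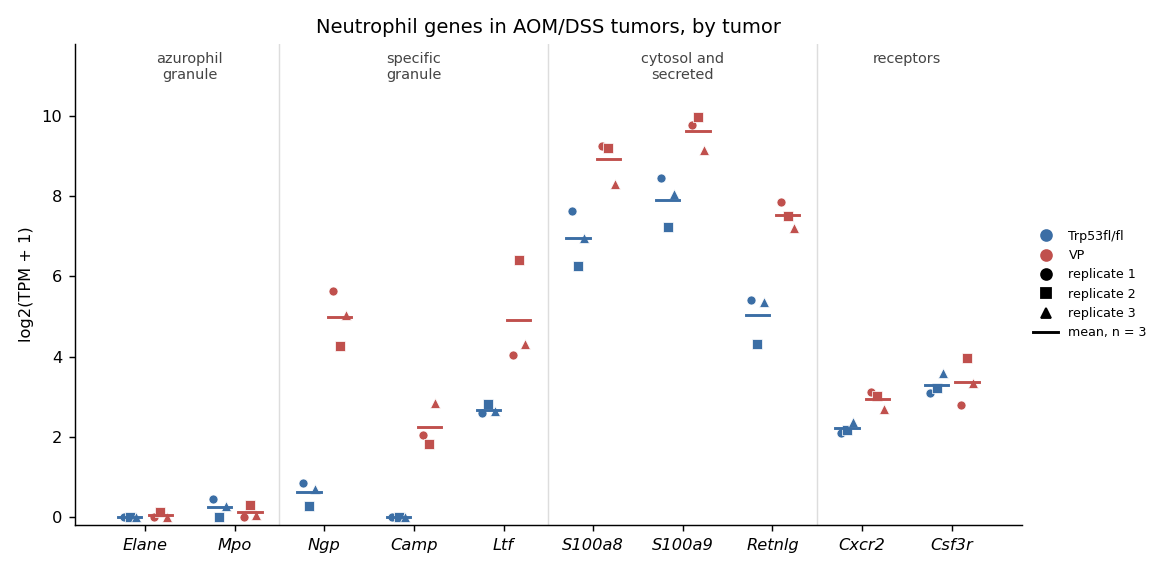
Level of each of the 10 neutrophil genes as log2(TPM + 1) in the 3 Trp53fl/fl tumors (blue) and the 3 VP tumors (red), with the replicate number as the marker shape and a bar at the mean of 3 tumors. Elane and Mpo lie near 0 in all 6 tumors, Csf3r overlaps between genotypes, and the other 7 genes are higher in each VP tumor.

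Ngp, Camp and Ltf are the 3 specific granule genes of the list, and all lie on chromosome 9 of the mouse. Ngp (ENSMUSG00000032484) encodes neutrophilic granule protein, a relative of the cathelicidins. Camp (ENSMUSG00000038357) encodes the cathelicidin itself, whose released peptide kills bacteria, and Ltf (ENSMUSG00000032496) encodes lactoferrin, which binds iron. Their promoters are shown because C/EBP factors, chiefly C/EBP epsilon, are the known activators of specific granule genes. Each is the part of the RefSeq promoter window (GRCm38.p6) that lies before the annotated first exon, on the strand of the gene, with matches to the C/EBP letters TTNNGNAA on either strand in capitals.
Ngp, chr9:110419558-110419746, plus strand: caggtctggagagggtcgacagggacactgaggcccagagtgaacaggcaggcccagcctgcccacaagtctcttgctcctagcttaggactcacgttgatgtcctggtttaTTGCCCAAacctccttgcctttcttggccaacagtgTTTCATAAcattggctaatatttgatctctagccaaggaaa
Camp, chr9:109849618-109849706, minus strand: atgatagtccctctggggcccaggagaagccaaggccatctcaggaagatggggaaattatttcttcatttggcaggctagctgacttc
Ltf, chr9:111019042-111019270, plus strand: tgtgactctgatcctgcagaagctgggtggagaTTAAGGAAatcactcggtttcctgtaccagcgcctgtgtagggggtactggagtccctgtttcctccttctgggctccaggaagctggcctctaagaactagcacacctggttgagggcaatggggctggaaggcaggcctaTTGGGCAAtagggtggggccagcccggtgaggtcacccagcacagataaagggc

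Ngp was at 0.81, 0.21 and 0.62 TPM in Trp53fl/fl replicates 1, 2 and 3 and at 48.44, 18.17 and 32.08 TPM in VP replicates 1, 2 and 3. It was thus close to absent in the Trp53fl/fl tumors, and the lowest VP tumor was well above the highest of them. The means were 0.547 ± 0.307 and 32.9 ± 15.2 TPM (SD, n = 3 each), a ratio of 60.2 and a log2 difference of 4.37. Among the alternative settings this difference ranged from 4.05 without VP replicate 1 to 5.70 with a pseudocount of 0.1.

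Camp was listed at 0 in all 3 Trp53fl/fl tumors and at 3.15, 2.53 and 6.14 TPM in VP replicates 1, 2 and 3. No fold can be given against a group at 0. VP replicate 3 had the highest Camp and VP replicate 1 the highest Ngp, so the pair did not rank the VP tumors alike.

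Ltf was at 5.02, 6.01 and 5.20 TPM in Trp53fl/fl replicates 1, 2 and 3 and at 15.52, 84.41 and 18.83 TPM in VP replicates 1, 2 and 3. The Trp53fl/fl tumors were nearly equal, while VP replicate 2 stood far above the other VP tumors. The means were 5.41 ± 0.527 and 39.6 ± 38.9 TPM (SD, n = 3 each), and the log2 difference of 2.25 became 1.50 without VP replicate 2. That tumor had the lowest Ngp of its group. Ltf exceeded Ngp 6.20-, 28.6- and 8.39-fold in the Trp53fl/fl tumors and 4.65-fold in VP replicate 2, but Ngp was the higher of the pair in VP replicates 1 and 3, where the ratio of Ltf to Ngp was 0.320 and 0.587.

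The azurophil granule genes were at or near 0 in both genotypes. Mpo (ENSMUSG00000009350, chromosome 11 from 87793581 to 87804413), which encodes myeloperoxidase, was at 0.36, 0 and 0.20 TPM in the Trp53fl/fl tumors against 0, 0.22 and 0.03 TPM in VP tumors. Elane (ENSMUSG00000020125, chromosome 10 from 79886247 to 79888215), which encodes neutrophil elastase, was listed at 0 in 5 of the 6 tumors and at 0.08 TPM in VP replicate 2. Neither passed the expression filter. The 4 further azurophil genes examined, Prtn3, Ctsg, Prss57 and Ms4a3, were also too low to test. Prtn3, which encodes proteinase 3, was the highest of them at 0.38, 0.90 and 0.60 TPM in the Trp53fl/fl tumors and 1.08, 0.82 and 0.97 TPM in VP tumors, and its groups overlapped.

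S100a8 (ENSMUSG00000056054) and S100a9 (ENSMUSG00000056071) encode the subunits of calprotectin, which binds zinc and manganese and fills the cytosol of neutrophils. They are neither granule nor receptor genes, and they were the most abundant of the 10. Inflamed epithelium and monocytes can also express them. The genes lie 22.6 kb apart on chromosome 3, S100a8 from 90668978 to 90670035 and S100a9 from 90692632 to 90695721 (GRCm38), and their promoter windows before the first exon are given as for the granule genes.
S100a8, chr3:90668821-90668977, plus strand: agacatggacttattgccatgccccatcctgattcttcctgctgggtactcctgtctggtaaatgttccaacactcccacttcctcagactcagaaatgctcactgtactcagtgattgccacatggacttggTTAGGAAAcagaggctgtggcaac
S100a9, chr3:90695722-90695971, minus strand: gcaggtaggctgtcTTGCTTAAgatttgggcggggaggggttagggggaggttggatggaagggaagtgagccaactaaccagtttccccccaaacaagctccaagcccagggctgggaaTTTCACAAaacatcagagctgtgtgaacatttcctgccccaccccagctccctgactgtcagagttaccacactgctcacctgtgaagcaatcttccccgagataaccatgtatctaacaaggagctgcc

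S100a8 was at 196.12, 75.52 and 124.22 TPM in Trp53fl/fl replicates 1, 2 and 3 and at 614.49, 585.84 and 316.10 TPM in VP replicates 1, 2 and 3. S100a9 was at 347.92, 148.25 and 263.04 TPM in the Trp53fl/fl tumors against 877.32, 1006.69 and 567.99 TPM in VP tumors. Both were lowest in Trp53fl/fl replicate 2, and VP replicate 3 was the lowest of the VP tumors. The ratio of group means was 3.83 for S100a8 and 3.23 for S100a9, and the log2 differences were 1.97 and 1.73. S100a8 relative to S100a9 was 0.515 ± 0.0460 in Trp53fl/fl tumors and 0.613 ± 0.0768 in VP tumors (SD, n = 3 each), and the groups overlapped.

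Retnlg (ENSMUSG00000022651, chromosome 16 from 48872621 to 48874496) encodes resistin-like gamma, a small secreted protein that mature mouse neutrophils make. It was at 41.81, 18.85 and 40.05 TPM in Trp53fl/fl replicates 1, 2 and 3 and at 232.50, 181.56 and 147.50 TPM in VP replicates 1, 2 and 3. The means were 33.6 ± 12.8 and 187 ± 42.8 TPM (SD, n = 3 each), 5.58-fold apart, and the log2 difference ran from 2.14 to 2.70 over the alternatives. Relative to its mean, Retnlg varied less between VP tumors than Ngp, Camp, Ltf, S100a8 or S100a9. Relative to S100a9 it was at 0.120, 0.127 and 0.152 in the Trp53fl/fl tumors against 0.265, 0.180 and 0.260 in the VP tumors, without overlap.

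The receptors differed less. Cxcr2 (ENSMUSG00000026180, chromosome 1 from 74153989 to 74161246), through which neutrophils follow CXC chemokines out of the marrow and into tissue, was at 3.27, 3.52 and 4.17 TPM in Trp53fl/fl replicates 1, 2 and 3 and at 7.72, 7.03 and 5.43 TPM in VP replicates 1, 2 and 3. The means were 3.65 ± 0.465 and 6.73 ± 1.17 TPM (SD, n = 3 each), a ratio of 1.84. Csf3r (ENSMUSG00000028859, chromosome 4 from 126024550 to 126044440), which transmits the main growth signal of the granulocyte lineage, was at 7.47, 8.24 and 11.08 TPM in the Trp53fl/fl tumors against 5.95, 14.72 and 9.09 TPM in VP tumors. The lowest and the highest Csf3r were both in VP tumors, and the log2 difference of 0.07 became -0.23 without VP replicate 2, -0.03 without Trp53fl/fl replicate 1, -0.09 with epithelial centring and 0.36 without VP replicate 1.

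The levels were also set against S100a9 of the same tumor. Ngp was at 2.33, 1.42 and 2.36 per 1000 S100a9 transcripts in the Trp53fl/fl tumors against 55.2, 18.0 and 56.5 in the VP tumors. Cxcr2 was at 9.40, 23.7 and 15.9 per 1000 S100a9 transcripts in the Trp53fl/fl tumors against 8.80, 6.98 and 9.56 in the VP tumors, and the groups overlapped. Csf3r was at 21.5, 55.6 and 42.1 per 1000 in the Trp53fl/fl tumors against 6.78, 14.6 and 16.0 in the VP tumors, so that every VP tumor was lower. S100a9 itself was 3.23-fold higher by mean in VP tumors, a difference known when the list was chosen. A gene of equal TPM in both genotypes is therefore lower in VP on this scale, and nothing about Csf3r is read from it. Among the 7 genes above 0 on average in both groups and tested, the ratio of VP to Trp53fl/fl means ran from 1.11 for Csf3r to 60.2 for Ngp.

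By level, S100a9 exceeded S100a8 and S100a8 exceeded Retnlg in all 6 tumors. In the Trp53fl/fl tumors Csf3r, Ltf and Cxcr2 followed in that order by mean TPM and also within each tumor, with Ngp, Mpo, Camp and Elane under 1 TPM. In the VP tumors Ltf and Ngp came next, in an order that changed between tumors. By mean TPM Csf3r, Cxcr2 and Camp followed. Their order also changed, since Cxcr2 exceeded Csf3r in VP replicate 1 and Camp (6.14 TPM) exceeded Cxcr2 (5.43 TPM) in VP replicate 3. The 10 genes summed to 602.78, 260.60 and 448.58 TPM in the Trp53fl/fl tumors and to 1805.09, 1901.25 and 1103.19 TPM in VP tumors. S100a8 and S100a9 made up 87.5 ± 2.41% of that sum in Trp53fl/fl tumors and 82.2 ± 1.86% in VP tumors (SD, n = 3 each), so the sum mostly reports these genes.

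The rest of the neutrophil programme was read from 57 further genes in 7 lists, of which 56 were in the file and 46 passed the filter. Limma called 2 of them higher in VP (Stfa3 and Cxcl2) and 0 lower, against 0.0794% of all tested genes called higher. Stfa3 was at 0 in all 3 Trp53fl/fl tumors and passed the filter only through the VP tumors, so it had to differ. Its call supports nothing, which leaves Cxcl2. An unadjusted p under 0.05 was reached by 19 with a higher and 1 with a lower level in VP. The 19 include Stfa3 and Csf3, which both passed the filter only through the VP tumors. Among all 15117 tested genes, 1892 reached it in either direction. Over all 56, 22 were higher in every VP tumor than in any Trp53fl/fl tumor and 1 was lower, against 6.03% and 13.3% of all tested genes. The sets are unlike, since the 22 include genes below the filter (Olfm4 and Stfa2) and the percentages cover tested genes only. The lists were also drawn up with earlier results of these data known. Without VP replicate 3 limma called 4 of them (Chil3, Cxcl2, Stfa2l1 and Stfa3), and without any 1 of the other 5 tumors it called Cxcl2 alone.

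**Figure D2:**
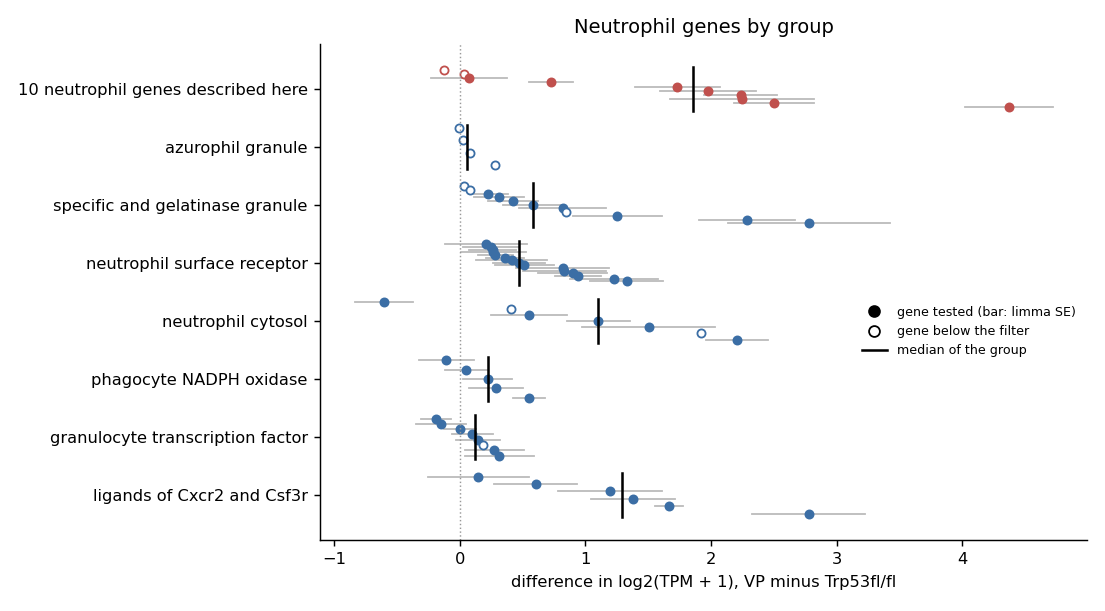
Difference between VP and Trp53fl/fl tumors in log2(TPM + 1) for the 10 neutrophil genes (red) and the 7 further neutrophil lists (blue), 1 point per gene. Filled points were tested and carry the limma SE, open points fell below the expression filter, and black bars are list medians, which run from 0.06 for the azurophil granule to 1.29 for the ligands, against 1.85 for the 10 genes.

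Of the other specific and gelatinase granule genes, 8 of 11 were tested, limma called 0, and 5 had an unadjusted p under 0.05. Such a p was reached by 1892 of all 15117 tested genes, in either direction. The median log2 difference over the 11 was 0.58. The most abundant were Pglyrp1, which encodes a bactericidal peptidoglycan-binding protein, Lcn2, which encodes the iron-scavenging lipocalin 2, and Cd177, a neutrophil surface glycoprotein. Lcn2 was at 471.99, 193.90 and 412.71 TPM in the Trp53fl/fl tumors against 626.86, 724.72 and 458.01 TPM in VP tumors, a log2 difference of 0.82 (SE 0.34, limma adjusted p = 0.395) with overlapping groups. For Pglyrp1 and Cd177 the log2 differences were 0.32 and 0.58 (limma adjusted p = 0.527 and 0.394). Pglyrp1 was at 1698.86, 1591.31 and 1728.46 TPM in the Trp53fl/fl tumors against 2285.82, 1538.35 and 2560.01 TPM in VP tumors, above S100a9 in every tumor. Which cells made the RNA of Pglyrp1 and Cd177 was not tested, and their levels need not report neutrophils. Lcn2 is also made by inflamed colon epithelium. Mmp8, the neutrophil collagenase, and Chil3, a chitinase-like protein, were picked out after their values were seen. Mmp8 was at 1.92, 1.13 and 2.28 TPM in the Trp53fl/fl tumors against 23.37, 9.90 and 7.95 TPM in VP tumors, a log2 difference of 2.29 (SE 0.38, limma adjusted p = 0.119). Chil3 was at 8.32, 3.14 and 3.65 TPM in the Trp53fl/fl tumors against 77.40, 53.48 and 12.61 TPM in VP tumors (log2 difference 2.78, limma adjusted p = 0.259).

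All 15 neutrophil surface receptor genes were tested, limma called 0 of them, and 6 had an unadjusted p under 0.05, against 1892 of all 15117 tested genes. Their median log2 difference was 0.47. Ly6g, the antigen by which mouse neutrophils are usually stained, was at 96.28, 106.45 and 76.21 TPM in the Trp53fl/fl tumors against 182.79, 90.89 and 72.56 TPM in VP tumors. The groups overlapped, and the log2 difference of 0.21 (limma adjusted p = 0.806) became -0.18 without VP replicate 1. Itgam, the integrin chain CD11b, and C5ar1, the receptor for complement fragment C5a, had log2 differences of 0.47 and 0.36 (limma adjusted p = 0.408 and 0.395).

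In the cytosol list, 5 of 7 genes in the file were tested, and Stfa3, which encodes a stefin (an inhibitor of cysteine proteases), was called. It was listed at 0 in all 3 Trp53fl/fl tumors and at 5.20, 3.46 and 2.55 TPM in VP tumors (limma adjusted p = 0.0318). Like Camp it passed the filter only through the VP tumors, so it had to differ and its p supports nothing. Its adjusted p was 0.101 to 0.157 when any tumor but VP replicate 3 was left out. Padi4, the enzyme that citrullinates histones in neutrophils, was the 1 gene of the 56 that was lower in every VP tumor, at 40.24, 38.23 and 39.07 TPM against 23.21, 19.00 and 37.11 TPM (log2 difference -0.60, limma adjusted p = 0.363). Alox5ap, which serves leukotriene synthesis, had a log2 difference of 1.10 (limma adjusted p = 0.244), and Asprv1, a protease, of 0.55 (limma adjusted p = 0.482).

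All 5 genes of the phagocyte NADPH oxidase, the enzyme of the oxidative burst, were tested and limma called 0. An unadjusted p under 0.05 was reached by 1 of them, against 1892 of all 15117 tested genes. Cyba and Ncf1 had log2 differences of 0.22 and 0.29 (limma adjusted p = 0.643 and 0.586). Of 8 granulocyte transcription factors, 7 were tested, limma called 0 and 0 had an unadjusted p under 0.05, and the median log2 difference was 0.12. Cebpd, Myb and Cebpa had log2 differences of 0.28, -0.19 and 0.10 (limma adjusted p = 0.633, 0.532 and 0.807). Cebpe, which encodes C/EBP epsilon, was at or below 0.84 TPM in every tumor and could not be tested.

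Among the ligands, Cxcl2 rose. This chemokine acts through CXCR2 and was at 25.71, 25.97 and 30.23 TPM in the Trp53fl/fl tumors against 92.25, 86.14 and 87.34 TPM in VP tumors. The tumors of each genotype were close to each other and the genotypes far apart, with a log2 difference of 1.67 (SE 0.11, limma adjusted p = 0.00486) that was called in every alternative, at an adjusted p of at most 0.0433. Cxcl1 was at 49.79, 23.58 and 35.60 TPM in the Trp53fl/fl tumors against 114.75, 60.28 and 112.49 TPM in VP tumors (log2 difference 1.38, SE 0.33, limma adjusted p = 0.268). Cxcl5 had a log2 difference of 0.60 (limma adjusted p = 0.482). Csf3, the growth factor that CSF3R binds, was picked out after its values were seen. It was at 0.78, 0.06 and 0.39 TPM in the Trp53fl/fl tumors against 18.44, 5.08 and 6.15 TPM in VP tumors (log2 difference 2.78, limma adjusted p = 0.114). Csf3 thus passed the filter only through the VP tumors and had to differ, so nothing is read from that p. Over the 6 ligands, 4 were higher in every VP tumor, Csf3 among them, against 6.03% of all tested genes. The median log2 difference of the 6 was 1.29.

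Markers of other cell types were summed in each tumor to set beside these values. The red cell markers, like the neutrophil genes, were higher in every VP tumor when summed. Their summed level was 168.47, 164.54 and 483.95 TPM in the Trp53fl/fl tumors and 711.95, 992.37 and 647.75 TPM in VP tumors, a ratio of means of 2.88. Of the 6 markers, 4 were tested, limma called 0, and all 4 had an unadjusted p under 0.05, against 1892 of all 15117 tested genes. Hba-a1, Hbb-bs and Hbb-bt, which encode the globin chains of hemoglobin, had log2 differences of 1.62, 1.78 and 1.56 (limma adjusted p = 0.287, 0.246 and 0.266). Without Trp53fl/fl replicate 3, the tumor with the most globin of its group, Hbb-bs had a log2 difference of 2.27 (limma adjusted p = 0.0392). Hba-a2 was listed at 0 in every tumor, and 75.5% of the 31-base words of Hba-a1 transcripts also occur in other genes, nearly all in Hba-a2. The part of blood in the neutrophil values was not tested.

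Macrophage and monocyte markers summed to 572.21 to 620.68 TPM in Trp53fl/fl tumors and to 632.50 to 806.81 TPM in VP tumors. Limma called 0 of the 10, and 3 had an unadjusted p under 0.05, against 1892 of all 15117 tested genes. The epithelial markers summed to between 9824.61 and 10260.9 TPM and between 10690.3 and 11897.7 TPM. The sums overlapped between genotypes for eosinophils, mast cells, T or NK cells, B or plasma cells, platelets, fibroblasts, smooth muscle and endothelium. Limma called 0 markers of any of these cell types, and the part of these cells in the neutrophil values was not tested.

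**Figure D3:**
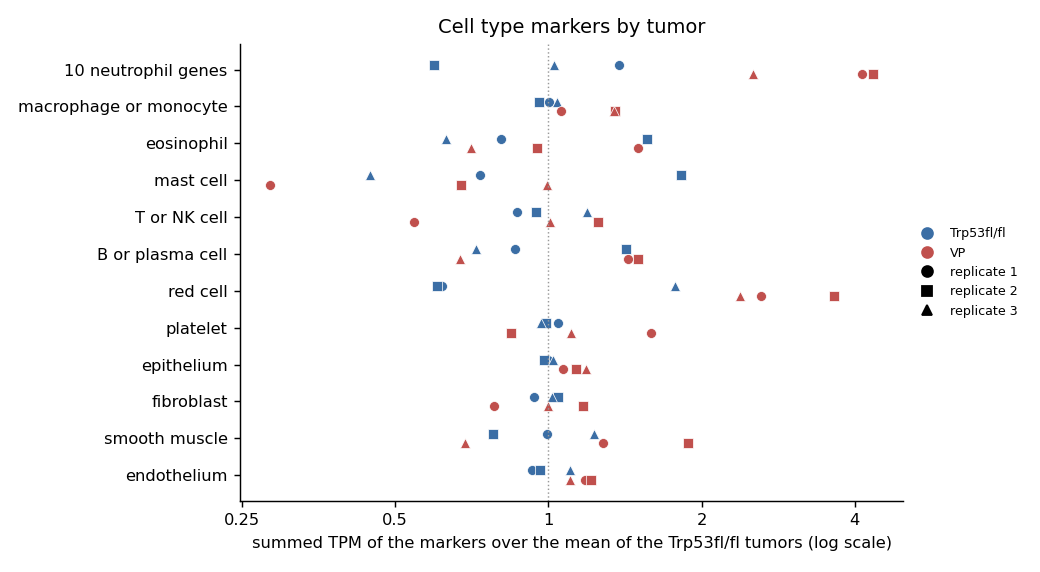
Summed TPM of the markers of each cell type in each tumor, divided by the mean of the 3 Trp53fl/fl tumors and drawn on a log scale, with Trp53fl/fl tumors in blue, VP tumors in red and the replicate number as the marker shape. The 10 neutrophil genes, the red cell markers (647.75 to 992.37 TPM in VP against 164.54 to 483.95 TPM), and by less the macrophage and epithelial markers, were higher in every VP tumor.

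The 3 specific granule genes lie along one stretch of chromosome 9. In the GENCODE M21 annotation of GRCm38, Camp spans chromosome 9 from 109847379 to 109849617 on the minus strand, Ngp from 110419747 to 110423012 and Ltf from 111019271 to 111042767, both on the plus strand. Camp and Ngp are 570.1 kb apart and Ngp and Ltf 596.3 kb. The differences of their neighbours were smaller. The 23 other tested genes within 1 Mb of Ngp had log2 differences from -0.57 to 0.67, and limma called 0 of them. Klhl18, 2.9 kb from Ngp, was at -0.17 (limma adjusted p = 0.635), Ptpn23, 11.5 kb away on the other side, at 0.09 (0.800), and Nme6, 4.3 kb from Camp, at -0.19 (0.657). The highest was Ccrl2, 11.7 kb from Ltf, which encodes a chemerin-binding receptor found on neutrophils among other cells. It was at 2.16, 3.78 and 3.15 TPM in the Trp53fl/fl tumors against 3.93, 7.56 and 4.96 TPM in VP tumors (log2 difference 0.67, limma adjusted p = 0.370), and like Ltf it was highest in VP replicate 2.

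**Figure D4:**
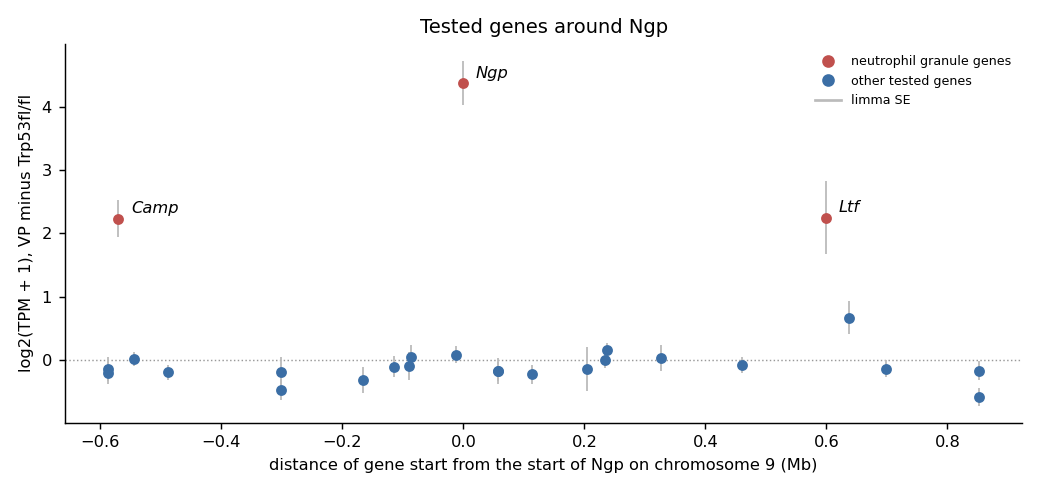
Difference between VP and Trp53fl/fl tumors in log2(TPM + 1), with the limma SE, for every tested gene around Ngp on chromosome 9, by the distance of its start from the start of Ngp in Mb. Ngp (4.37), Ltf (2.25) and Camp (2.24) stand above the 23 other genes, which lie between -0.57 and 0.67.

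None of the 4 motifs searched was found in the promoter windows of all 10 genes. The C/EBP letters TTNNGNAA were found in 5 of the 10 windows of 300 bases around the RefSeq start site (Ngp, Ltf, S100a8, S100a9 and Retnlg), against 40.7% of 32851 such windows of the mouse genome. Camp, shown above without capitals, held none. The PU.1 letters GAGGAA were in 6 windows (28.3% of all) and those of the repressor GFI1, AATC, in 7 (73.1% of all), both strands searched. TATAAA was in the windows of S100a8 and S100a9 only, against 13.6% of all. A match describes the letters and is no evidence of binding.

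The genes whose standardized log2(TPM + 1) profile over the 6 tumors lay nearest to the mean profile of the 10 neutrophil genes were Psmb8, Plaat3, Slc35c1, F10, Tap2, Agpat4, Zbp1, Irf8, Apba3 and Ube2l6. Their root mean square distances ran from 0.0978 SD for Psmb8 to 0.185 SD for Ube2l6. Psmb8, the nearest, was at 92.75, 59.03 and 82.73 TPM in the Trp53fl/fl tumors against 151.63, 252.46 and 157.81 TPM in VP tumors. Of the 10 genes themselves, S100a9 was nearest to their common profile at 0.300 SD and Ltf next at 0.358 SD. Ngp was at 0.576 SD, Elane at 0.724 SD and Csf3r at 1.09 SD, and Mpo was the farthest at 1.39 SD. Each of the 10 had equal weight in the mean profile, so Mpo and Elane, near 0 in all 6 tumors, also shaped it. With 6 points that share a genotype split, such a distance is a description of likeness only.

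Reads shared between similar genes could affect a few values. Ngp, Camp, Ltf, S100a8, S100a9 and Elane shared 0% of their 31-base transcript words with any other gene, Retnlg 5.5% (all with Retnla) and Cxcr2 7.7%. Csf3r shared 23.1%, mostly with the entry AC105061.2, so its level is less certain than the others among the 10. Of the further genes, Stfa2l1 shared 41.6% (mostly with Stfa2) and Hbb-bs 54.4% (all with Hbb-bt). Ly6g shared 9.5%, Cxcl2 7.6% (all with Cxcl3) and Stfa3 0%.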

How the data were processed

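The authors deposited 1 table of TPM per gene with 2 decimals, unpooled, with a column for each of the 6 tumors. The submitters' processing notes name HISAT2, StringTie and the build mm9, while 52093 of 54167 gene IDs have an entry in GENCODE M21 (GRCm38), from which coordinates were taken. Of the IDs, 467 are assembled transcripts without a name, and 26296 genes were at 0 in all tumors. Groups and replicate numbers came from the labels.

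Deposited TPM were put on a log2 scale after adding 1, and the 15117 genes that reached 1 TPM in 3 or more tumors were tested with limma 3.58.1 in R 4.3.3 (empirical Bayes with trend, Benjamini-Hochberg adjustment, 3 tumors against 3, no covariate). The procedure was tested on simulated data. TPM hold no counts, so no count test was run and no counting interval is given. Mean differences shift with the scaling, because a TPM depends on all other genes of its tumor.

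The 10 genes, the further lists and the cell type markers were chosen with earlier results of these data known. Named genes were the 10, Trp53, the 3 most abundant genes and every called gene of each neutrophil and red cell list, the 10 nearest profiles, and neighbours of the chromosome 9 genes, of which those nearest are named. Some genes under this rule are not reported here singly. For Mmp8, Chil3, Csf3 and the genes under Other observations, the text says that their values were known first. Ctsg, Olfm4, Cebpe, Hba-a2 and genes named only for calls under an alternative or for shared words also fall outside this rule. Promoters came from RefSeq (GRCm38.p6), and shared words were counted over GENCODE M21 transcripts. The alternatives were a pseudocount of 0.1, no filter, median-of-ratios rescaling, centring on 12 epithelial genes, a replicate block and each tumor left out in turn.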

Additional observations from a re-analysis of the deposited data

How the results depend on the processing

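The number of genes called, 25, became 42 with epithelial centring, 7 with no filter and 10 with a replicate block, and ran from 6 to 28 with 1 tumor left out. The further neutrophil genes called, 2, became 1 with no filter and 1 with the replicate block (Cxcl2 in both), and ran from 1 to 4 with 1 tumor left out. The median log2 difference of the 10 genes ran from 1.51 to 2.10 over all alternatives. Of the 10, limma called 1, which became 2 with epithelial centring or a pseudocount of 0.1 and 0 with no filter. As the list was chosen on this contrast, these counts too support nothing. Among the genes recomputed, the log2 difference changed sign for Ly6g, which ran from -0.18 without VP replicate 1 to 0.48 without VP replicate 3, and with epithelial centring for Cebpa (-0.064), Elane (-0.13) and Csf3r (-0.09), and Csf3r was also negative without Trp53fl/fl replicate 1 (-0.03) and VP replicate 2 (-0.23). The adjusted p of Trp53 was 0.104 with no filter and 0.0883 with the replicate block. The no filter setting tests 27871 genes. Other causes were not tested.

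The labels do not say whether tumors with the same replicate number belong together, and they were treated as unpaired. Deviations from the group means of same-numbered tumors correlated at 0.0185, -0.0520 and 0.0175 across genes, within the range of -0.108 to 0.0952 over all pairings. Depth is unknown, so the precision of values under 1 TPM, which include all values of Mpo and Elane and the Trp53fl/fl values of Ngp, cannot be stated.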

Other observations

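The 3 VP tumors did not rank alike for the neutrophil genes, a pattern seen in the values and not tested. VP replicate 1 held the highest level of Ngp, Retnlg, S100a8 and Cxcr2, and also of Ly6g, Chil3, Mmp8 and Csf3. The interleukin-1 decoy receptor Il1r2 was at 24.35, 9.01 and 8.32 TPM in VP replicates 1, 2 and 3, and the stefin gene Stfa2, below the filter, at 16.19, 2.13 and 0.36 TPM. VP replicate 2 held the highest level of Ltf, S100a9 and Csf3r, and also of Lcn2. The formyl peptide receptor genes Fpr1 and Fpr2 were at 8.60, 11.30 and 4.98 TPM and at 6.68, 10.13 and 4.60 TPM in VP replicates 1, 2 and 3, and the lectin gene Clec4e at 4.22, 9.75 and 6.03 TPM. VP replicate 3 held the highest Camp, at 6.14 TPM, but the lowest S100a8, S100a9, Retnlg and Cxcr2 of its group. Genes named here were chosen after their values were seen, and with 1 tumor behind each rank no difference between tumors has an error.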
